A study of Mus musculus with 34 samples.

Results

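The killer cell lectin-like receptors described here are the products of Klrb1f, Klrb1c, Klrd1, Klrk1, Klrg1 and Klrc1, 6 of the 19938 mouse genes that the arrays measured with a probe set assigned to a single symbol. Each of the 6 has 1 such probe set, so no choice between probe sets arose. The arrays hold RNA of CD4+ spleen cells, taken with magnetic beads from female mice aged 8 weeks of 5 inbred strains: C57BL/6J, 129X1/SvJ, DBA/2J, A/J and Balb/c. In each strain a stimulated group (T1) had received phorbol 12-myristate 13-acetate (PMA, 10 ng/ml) and ionomycin (1 uM) for 4 h, and an unstimulated group (T0) represented the basal state. PMA switches on protein kinase C and ionomycin lets calcium into the cell, so together they bypass the T cell receptor. A/J and C57BL/6J had 4 arrays at each time and the other strains 3, 34 arrays in all. Whether the T0 cells were also cultured before extraction is not clear from the sources used here, and p-values measure the spread between samples that the labels call biological replicates.

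Killer cell lectin-like receptors are C-type lectin-like membrane proteins of natural killer (NK) cells and of some T cells, and most of their genes lie together in the NK gene complex on mouse chromosome 6. Klrd1 encodes CD94, which pairs with the inhibitory chain NKG2A, the product of Klrc1, to form a receptor for the non-classical class I molecule Qa-1. Klrk1 encodes NKG2D, an activating receptor for stress-induced ligands. Klrb1c and Klrb1f encode members of the NKR-P1 group, of which the first carries the NK1.1 antigen used to mark NK cells in C57BL/6 mice and the second binds Clr-g, the product of Clec2i. Klrg1 encodes an inhibitory receptor for cadherins that marks NK cells and antigen-experienced effector T cells. In the RefSeq order of protein-coding genes on chromosome 6, Klrd1 and Klrk1 are direct neighbours, 2 genes separate Klrk1 from Klrc1, 5 separate Klrb1c from Klrb1f, and Klrg1 lies 112 genes before Klrb1c.

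Promoter sequence was found in RefSeq (GRCm38.p6) for 4 of the 6 genes. The 250 bases before the annotated start are shown for Klrb1f and Klrc1, because these 2 genes moved in opposite directions after stimulation. Klrb1f lies on the plus strand (chr6:129045651-129045900) and Klrc1 on the minus strand (chr6:129678974-129679223), and both are written 5′ to 3′ along the gene. Capitals mark matches on either strand to the letters GGAAA, the core bound by NFAT factors, and TGTGGT, a core bound by RUNX factors.
Klrb1f: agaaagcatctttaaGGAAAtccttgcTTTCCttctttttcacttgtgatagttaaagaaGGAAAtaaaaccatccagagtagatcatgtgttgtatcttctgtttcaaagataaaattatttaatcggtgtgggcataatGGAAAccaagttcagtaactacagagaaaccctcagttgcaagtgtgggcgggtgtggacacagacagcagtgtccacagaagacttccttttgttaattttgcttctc
Klrc1: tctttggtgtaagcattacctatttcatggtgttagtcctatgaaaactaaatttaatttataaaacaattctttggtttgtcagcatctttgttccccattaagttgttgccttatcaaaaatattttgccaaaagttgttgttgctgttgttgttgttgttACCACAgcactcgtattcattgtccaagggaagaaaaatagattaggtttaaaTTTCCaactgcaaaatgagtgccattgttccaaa
The Klrb1f window held 4 matches to GGAAA and 0 to TGTGGT, and the Klrc1 window held 1 match to each. The AP-1 letters TGANTCA had 0 matches in either window. Over all 32851 mouse promoter windows of this length, 55.6% held GGAAA, 14% held TGTGGT and 6.75% held TGANTCA, so matches to the first are common. Of the bases in these windows, 0 lay in matches to more than 1 motif.

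The deposited values are log2 intensities. A level of 5.327, the median of all values, was used as a limit: a group mean under it is not shown to lie above background, and the size of a difference that involves such a mean is not exact. Klrc1 had all 10 group means at or over the limit, Klrg1 9, Klrb1f 4, Klrd1 3, Klrk1 1 and Klrb1c 0. Klrb1c was therefore left out of the main test, which kept 11413 genes, and its tests come from a fit of all 19938 genes. For Klrb1f, Klrd1 and Klrk1, every group mean at or over the limit was a T0 mean. They were kept through T0 groups alone, so their T1 minus T0 tests are not independent of the filter. Adjusted p-values are from limma with Benjamini-Hochberg adjustment, and called means that this value was under 0.05.

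**Figure D1:**
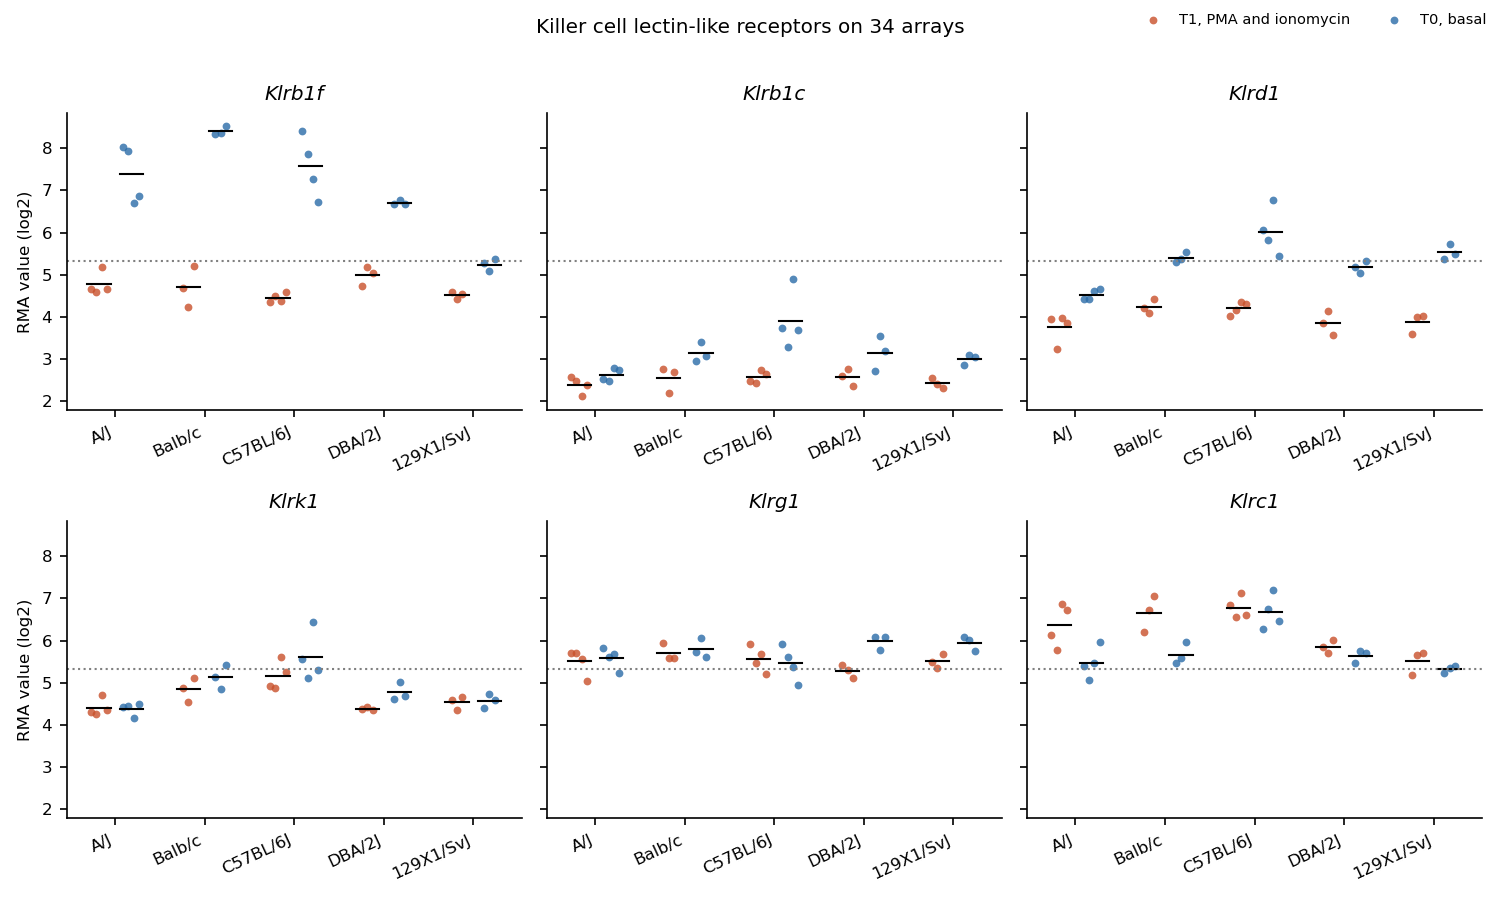
Log2 RMA value (vertical axis) of each of the 6 genes on every array, by strain (horizontal axis), with T1 arrays in orange left of T0 arrays in blue. Bars are group means and the dotted line is the limit of 5.327. The T1 and T0 arrays of Klrb1f and of Klrd1 do not overlap in any of the 5 strains. The same holds in single strains for 52.5% (A/J) to 69.2% (DBA/2J) of all genes kept.

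The cells carried the markers of their label. Mean Cd4 values ran from 8.02 to 8.95 in the T1 groups and from 9.23 to 9.58 in the T0 groups. Messages of other cells were present too: a list of 9 B cell genes averaged 6.27 to 6.58 at T1 and 7.52 to 8.39 at T0 over the strains. A list of 12 myeloid genes averaged 5.74 to 6.30 at T1 and 6.24 to 7.14 at T0. Of these genes 7 were called lower and 1 higher, against 46.3% lower and 36.0% higher over all genes kept. Over 6 erythroid genes, means ran from 5.41 (129X1/SvJ) to 8.56 (A/J) at T1 and from 5.38 (129X1/SvJ) to 8.44 (A/J) at T0. The list of 19 NK cell genes averaged 6.22 to 6.71 at T1 and 5.92 to 6.39 at T0, but 5 of its genes (Ncr1, S1pr5, Klra8, Klre1 and Cma1) were under the limit in all 10 groups. In such mixed RNA, fewer cells of a type and less RNA per cell cannot be told apart.

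Averaged over the 5 strains, all 5 of the receptor genes kept were called after stimulation, 4 lower and 1 higher. Of all genes kept, 82.3% were called, 46.3% lower and 36.0% higher, so the number called is near the background. Klrb1f fell by 2.38 and Klrd1 fell by 1.35 on the log2 scale, and the T1 array was the lower one in 17 of 17 comparisons of arrays with the same number for both genes. Klrc1 was the one gene that rose, by 0.48. The changes of Klrk1 and Klrg1 were small, -0.23 and -0.24. The median difference of the 5 genes was -0.24, against -0.07 over all genes kept.

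Klrb1f, the receptor for Clr-g, showed the widest range of values. In Balb/c it read 4.69, 4.24 and 5.20 on the T1 arrays, against 8.33, 8.37 and 8.52 on the T0 arrays. In C57BL/6J the T1 arrays read 4.34, 4.50, 4.38 and 4.58, against 8.42, 7.87, 7.27 and 6.73 at T0. Each T1 array lay well below each T0 array in both strains. In A/J the values were 4.66, 4.59, 5.17 and 4.66 at T1, against 8.03, 7.93, 6.70 and 6.88 at T0. In DBA/2J they were 4.72, 5.19 and 5.04 at T1, against 6.69, 6.77 and 6.67 at T0. In 129X1/SvJ the T1 arrays read 4.59, 4.41 and 4.54, against 5.27, 5.09 and 5.36 at T0. The 129X1/SvJ groups did not overlap either, but its T0 mean of 5.24 was itself under the limit.

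None of the 17 T1 arrays reached the limit for Klrb1f, whereas 15 of 17 T0 arrays did. The mean difference of -2.38 had a standard error of 0.13 and an adjusted p of 6.25e-17. Klrb1f was kept through T0 groups alone, and in the fit of all genes, without the filter, the adjusted p was 1.28e-17. By strain the difference was -3.69 in Balb/c, -3.12 in C57BL/6J, -2.62 in A/J, -1.73 for DBA/2J and -0.73 for 129X1/SvJ, all called, with adjusted p-values from 1.48e-11 to 0.0421. As the T1 levels are not shown to lie above background, no fold is given. The call in 129X1/SvJ depended on single arrays: its adjusted p reached up to 0.106 with 1 array left out. Of all genes kept, 34.1% were called lower in Balb/c, 38.6% in C57BL/6J, 36.3% in A/J, 36.2% for DBA/2J and 34.7% for 129X1/SvJ. T1 and T0 arrays did not overlap for 57.8% of genes in Balb/c, 52.6% in C57BL/6J, 52.5% in A/J, 69.2% for DBA/2J and 63.0% for 129X1/SvJ.

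The T1 minus T0 difference of Klrb1f was called different between strains. The test over the 5 strains gave an adjusted p of 8.73e-05, a call made for 6.92% of all genes kept, and Klrb1f was the 1 receptor gene called. The difference in Balb/c was more negative than the mean of the other 4 strains (-1.65, 95% interval -2.33 to -0.96, adjusted p = 0.0123), a direction called for 0.307% of all genes kept. That in 129X1/SvJ was less negative (2.06, interval 1.38 to 2.75, adjusted p = 0.000382), a direction called for 1.18%. Without Balb/c T0 replicate 4 the adjusted p in Balb/c was 0.0527, and without its number 2 at both times 0.0907. All T1 means of Klrb1f, and the T0 mean of 129X1/SvJ, lie under the limit, so these sizes are not exact and a larger fall in 129X1/SvJ could not have been seen. A difference between strains in response and one in T0 level cannot be told apart here.

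Klrb1f differed between strains at T0. The T0 means, each with its SD, were 8.41 ± 0.10 in Balb/c (n = 3), 7.57 ± 0.73 in C57BL/6J (n = 4), 7.39 ± 0.69 in A/J (n = 4), 6.71 ± 0.05 in DBA/2J (n = 3) and 5.24 ± 0.14 in 129X1/SvJ (n = 3). The strains differed with an adjusted p of 2.53e-08, a call made for 18.5% of all genes kept. Of 10 pairs of strains 6 were called, with p-values adjusted over all genes and pairs, and 6.87% of all such tests were called. 129X1/SvJ was lower than each of the other 4, through whose T0 groups Klrb1f was kept. Balb/c and C57BL/6J, C57BL/6J and A/J, and A/J and DBA/2J, neighbours in this order, were not called apart. Nor were C57BL/6J and DBA/2J (0.86, adjusted p = 0.0644). In the fit of all genes 6 pairs were called as well. At T1 the means spanned 0.53, from 4.45 to 4.98, and the strains were not called different (adjusted p = 0.512), at levels that are all under the limit.

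The T0 spread of Klrb1f in A/J and C57BL/6J followed the replicate numbers. Arrays numbered 1 and 2 averaged 7.98 in A/J and 8.15 in C57BL/6J, and those with higher numbers 6.79 in A/J and 7.0 in C57BL/6J. The labels do not say what a number stands for. Within numbers 1 and 2 the test of response over strains gave an adjusted p of 0.000335, and within numbers 3 to 5 an adjusted p of 0.0243. The Balb/c difference in response was -1.45 (adjusted p = 0.0168) in numbers 1 and 2 and -1.61 (0.238) in numbers 3 to 5. That of 129X1/SvJ was 2.55 (0.000103) in numbers 1 and 2 and 1.51 (0.137) in numbers 3 to 5.

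**Figure D2:**
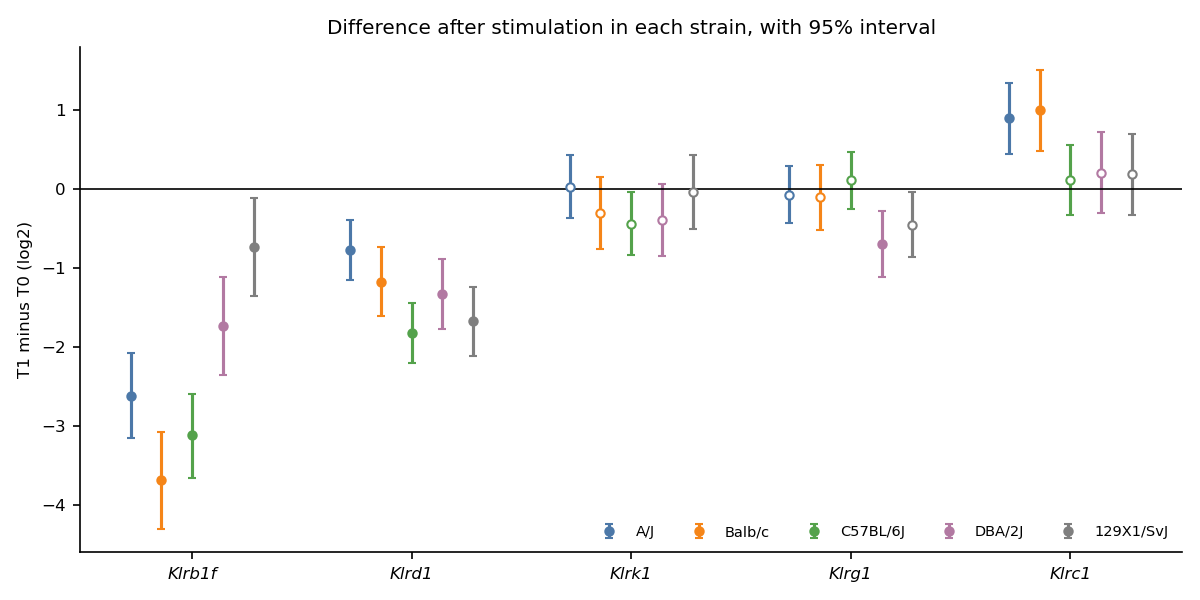
Difference T1 minus T0 on the log2 scale (vertical axis) for the 5 receptor genes kept, by strain (colours). Bars are 95% intervals from limma, and filled points were called at an adjusted p under 0.05; Klrb1f spans -3.69 in Balb/c to -0.73 in 129X1/SvJ, and the called values of Klrc1, in A/J and Balb/c, lie above 0.

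Zbtb16, the factor PLZF that marks NKT cells and other innate-like T cells, had a strain order at T0 close to that of Klrb1f, and is singled out here after its values were seen. Its mean was 7.81 in C57BL/6J, 7.50 in Balb/c, 7.24 in A/J, 6.70 for DBA/2J and 6.36 for 129X1/SvJ. This is the order of Klrb1f except for the highest 2 strains. At T1 the Zbtb16 means ran from 6.40 to 6.95, and its response also differed between strains (adjusted p = 0.000759). Of the 5 genes listed for NKT and gamma delta T cells, 3 rose after stimulation and 2 fell. Over all genes kept 36.0% were called higher and 46.3% lower. The list averaged 6.61 to 6.96 at T1 and 6.44 to 6.69 at T0, and its T0 mean was lowest in Balb/c and highest in DBA/2J, unlike Klrb1f. Blk, a Src family kinase that B cells also express, averaged 9.28 for 129X1/SvJ and 9.02 for DBA/2J at T0, against 7.74 to 8.24 in the other strains. Il23r, an interleukin receptor chain, was lowest at T0 in Balb/c (4.32) and highest in DBA/2J (5.44). The part of these cells in the Klrb1f values was not tested.

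Klrd1, the CD94 chain, fell after stimulation in every strain. In C57BL/6J it read 4.01, 4.17, 4.35 and 4.30 on the T1 arrays, against 6.05, 5.83, 6.77 and 5.45 on the T0 arrays. In 129X1/SvJ the T1 arrays read 3.58, 3.99 and 4.02, against 5.38, 5.73 and 5.49 at T0. In these strains all T0 arrays lay over the limit and all T1 arrays under it. In Balb/c the values were 4.20, 4.09 and 4.41 at T1, against 5.31, 5.36 and 5.54 at T0. In DBA/2J they were 3.86, 4.13 and 3.56 at T1, against 5.18, 5.04 and 5.32 at T0. In A/J they were 3.95, 3.23, 3.98 and 3.85 at T1, against 4.41, 4.42, 4.61 and 4.66 at T0. No T1 array overlapped a T0 array of its strain, although DBA/2J and A/J stayed under the limit at both times. Such a lack of overlap held for 52.5% (A/J) to 69.2% (DBA/2J) of all genes kept.

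The mean difference of Klrd1 was -1.35 (SE 0.09, adjusted p = 1.24e-14). Klrd1 was kept through T0 groups alone, and in the fit of all genes, without the filter, the adjusted p was 4.38e-15. All T1 means were under the limit, so the size is not exact. The difference was -1.82 in C57BL/6J, -1.67 for 129X1/SvJ, -1.33 for DBA/2J, -1.17 in Balb/c and -0.77 in A/J, all called. Of all genes kept, 34.1% (Balb/c) to 38.6% (C57BL/6J) were called lower in a strain. The responses were not called different between strains (adjusted p = 0.0571). That value passed 0.05 when A/J T1 replicate 2 (0.0146), Balb/c T1 replicate 2 (0.0418) or C57BL/6J T0 replicate 4 (0.0105) was left out, and with the split of replicate numbers as a term (0.0308).

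At T0 Klrd1 differed between strains (adjusted p = 5.88e-06). C57BL/6J was 0.86 higher than the other 4 strains (95% interval 0.56 to 1.17, adjusted p = 0.000135), a comparison in which 5.81% of all genes kept were called higher. A/J was lower than the other 4 (-1.01, interval -1.32 to -0.71, adjusted p = 2.34e-05), a direction called for 4.16% of all genes kept. Of the 10 pairs of strains 5 were called, 4 of them with A/J as the lower strain, and 6.87% of all such tests were called. The A/J mean of 4.52 was under the limit, so the sizes of its differences are not exact. Klrd1 was kept through T0 groups of other strains, so these tests are not independent of the filter. In the fit of all genes 4 pairs were called, and A/J and DBA/2J were not called apart (adjusted p = 0.0563). DBA/2J mice are known to lack CD94 on their NK cells. Here DBA/2J stood at -0.19 against the other 4, with an interval of -0.53 to 0.15 and an adjusted p of 0.718. Its T0 mean of 5.18 was under the limit, so Klrd1 RNA is not shown to lie above background in DBA/2J. At T1 the strains were not called different (adjusted p = 0.138), but were without C57BL/6J T0 replicate 3 (0.0445).

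Klrc1, the inhibitory partner of CD94, rose in Balb/c and A/J. In Balb/c it read 6.21, 6.72 and 7.06 on the T1 arrays, against 5.46, 5.58 and 5.96 on the T0 arrays, with no overlap. T1 and T0 arrays did not overlap for 57.8% of all genes kept in this strain. In A/J the T1 arrays read 6.13, 5.77, 6.87 and 6.73, against 5.39, 5.07, 5.47 and 5.96 at T0. The A/J groups overlapped by 1 array on each side. In C57BL/6J the values were 6.84, 6.56, 7.13 and 6.60 at T1, against 6.27, 6.74, 7.20 and 6.47 at T0. In DBA/2J they were 5.84, 5.70 and 6.01 at T1, against 5.46, 5.75 and 5.70 at T0. In 129X1/SvJ they were 5.18, 5.66 and 5.71 at T1, against 5.24, 5.34 and 5.40 at T0. These last 3 strains overlapped between the times, with C57BL/6J high and 129X1/SvJ low at both.

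Over the strains Klrc1 rose 1.4-fold (0.48 on the log2 scale, SE 0.11, adjusted p = 0.000159), with T1 the higher array in 13 of 17 comparisons of the same number. It rose 1.99-fold in Balb/c (adjusted p = 0.00125) and 1.86-fold in A/J (adjusted p = 0.000773). Of all genes kept, 20.6% were called higher in Balb/c and 20.3% in A/J. The differences of 0.11 (C57BL/6J), 0.21 (DBA/2J) and 0.19 (129X1/SvJ) were not called, with 95% intervals reaching up to 0.56, 0.73 and 0.70. The responses were not called different between strains (adjusted p = 0.17), although they were with the split of replicate numbers as a term (0.0316). Klrc1 and its neighbour Klrc2 are near-identical in sequence, and their probes may share signal.

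The strain differences of Klrc1 were present at both times. C57BL/6J exceeded the other 4 strains by 0.68 at T1 (adjusted p = 0.0107, with 5.79% of all genes kept called higher) and by 1.14 at T0 (adjusted p = 2.63e-05). At T0 its mean of 6.67 ± 0.40 was called apart from each other strain, whose means of 5.67 in Balb/c, 5.64 in DBA/2J, 5.48 in A/J and 5.33 for 129X1/SvJ were not called apart. At T1 the means were 6.78 in C57BL/6J, 6.66 in Balb/c, 6.37 in A/J, 5.85 for DBA/2J and 5.52 for 129X1/SvJ, and 129X1/SvJ was lower than the other 4 (-0.90, adjusted p = 0.00266, a direction called for 5.53%). Over strains, 31.0% of all genes kept were called at T1 against the 18.5% at T0, and 2 receptor genes, Klrc1 and Klrk1, were called at T1 against 4 at T0. Each T1 call of 1 strain was lost in 1 of 34 fits with 1 array left out: the difference was 0.56 (adjusted p = 0.0768) for C57BL/6J without its T1 replicate 3, and -0.73 (0.0515) for 129X1/SvJ without its T1 replicate 1. The Klrc1 test over strains at T1 stayed called in all 34, with adjusted p-values up to 0.00355.

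Klrk1, the activating receptor NKG2D, was near or under the limit at both times. In C57BL/6J it read 4.92, 4.87, 5.61 and 5.26 on the T1 arrays, against 5.56, 5.10, 6.45 and 5.30 on the T0 arrays. In Balb/c the values were 4.87, 4.55 and 5.11 at T1, against 5.14, 4.86 and 5.43 at T0. The arrays of both times overlapped in each of these strains, and in A/J and 129X1/SvJ. In DBA/2J they did not: it read 4.38, 4.42 and 4.34 at T1, against 4.61, 5.02 and 4.68 at T0, all under the limit. In that strain 69.2% of all genes kept did not overlap. The T1 array was the lower one in 14 of 17 comparisons of the same number. The lowest, median and highest values over all strains were 4.26, 4.58 and 5.61 at T1 and 4.17, 4.72 and 6.45 at T0. The mean difference of -0.23 was called (adjusted p = 0.0308), and in 5 of 34 fits with 1 array left out the adjusted p exceeded 0.05, up to 0.0615. No single strain was called. C57BL/6J, at -0.44 (adjusted p = 0.051), was called in 14 of 44 other settings, with adjusted p-values down to 0.0103, while without its T0 replicate 3 the difference was -0.16 (0.413).

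Klrk1 differed between strains at T1 (adjusted p = 0.0117) and at T0 (adjusted p = 0.00013). C57BL/6J exceeded the other 4 by 0.62 at T1 (adjusted p = 0.00934) and by 0.89 at T0 (adjusted p = 0.000198). Its T0 mean of 5.6 was the 1 group mean over the limit. Klrk1 was kept through that group alone, so the T0 test of C57BL/6J is not independent of the filter. In the fit of all genes the adjusted p was 0.0131 at T1 and 0.000213 at T0. All T1 means were under the limit, so these sizes are not exact. A/J was lower than the other 4 at T0 (-0.64, adjusted p = 0.00927; 0.0576 without A/J T0 replicate 4). Of 10 pairs of strains 2 were called at T1, where 9.77% of all tests of a gene and a pair were called. At T0 4 were called, against 6.87% of all such tests. The T1 difference of C57BL/6J was 0.48 (adjusted p = 0.0877) without its T1 replicate 3.

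Klrb1c, the NK1.1 gene, stayed under the limit on 34 of 34 arrays. It read 2.47, 2.42, 2.73 and 2.64 in C57BL/6J at T1, against 3.73, 3.28, 4.89 and 3.69 at T0. In the other strains it ran from 2.11 to 2.76 at T1 and from 2.47 to 3.55 at T0. In the fit of all genes its mean difference was -0.66 (SE 0.10, adjusted p = 7.83e-07, with 68.5% of all genes called), and C57BL/6J was the 1 strain called (-1.34, adjusted p = 2.23e-06; 43.5% of all genes called). At T0 C57BL/6J exceeded the other 4 strains by 0.92 (adjusted p = 0.000323, with 3.14% of all genes called higher). As all values lie under the limit, these sizes are not exact.

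Klrg1, the cadherin receptor, spanned a narrow range. Its lowest, median and highest values were 5.04, 5.57 and 5.93 at T1 and 4.94, 5.76 and 6.09 at T0. In DBA/2J it read 5.43, 5.31 and 5.12 on the T1 arrays, against 6.09, 5.77 and 6.09 on the T0 arrays. In 129X1/SvJ it read 5.49, 5.34 and 5.68 at T1, against 6.08, 6.01 and 5.76 at T0. The groups did not overlap in these strains, which held for 69.2% of all genes kept in DBA/2J and 63.0% in 129X1/SvJ. DBA/2J was the 1 strain called (-0.70, adjusted p = 0.00398), and 36.2% of all genes kept were called lower there. Its T1 mean of 5.29 was under the limit, so this size is not exact. The 129X1/SvJ difference of -0.45 (adjusted p = 0.0618) was called in 8 of 44 other settings: it was -0.63 (0.00914) with numbers 1 and 2 alone and -0.08 (0.883) with numbers 3 to 5 alone. The mean difference was -0.24 (SE 0.09, adjusted p = 0.0116). Strains were not called different at T1 (adjusted p = 0.53), at T0 (0.14) or in response (0.24), and none of the 10 pairs of strains was called at either time. Klrg1 at T0 was called (adjusted p = 0.0394) without C57BL/6J T0 replicate 1.

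C57BL/6J had the highest T0 mean of Klrd1, Klrk1, Klrc1 and Klrb1c, and 1 array, its T0 replicate 3, was the highest of its group for all 4 with values of 6.77, 6.45, 7.20 and 4.89. On the same array the NK cell list averaged 6.75, against 6.23 to 6.32 on the other C57BL/6J T0 arrays and at most 6.43 on the T0 arrays of the other strains. Without that array C57BL/6J still exceeded the other 4 strains at T0, by 0.61 for Klrd1 (adjusted p = 0.00344), 0.61 for Klrk1 (0.00438), 0.97 for Klrc1 (0.000782) and 0.59 for Klrb1c in the fit of all genes (0.0072). Over the 17 T0 arrays Pearson's r was 0.82 for Klrd1 with Klrk1, 0.82 for Klrk1 with Klrc1 and 0.89 for Klrb1c with Klrk1, while it was -0.03 for Klrb1f with Klrd1. These correlations are descriptions over arrays that share strains. Whether sequence variants between strains under the probes lower or raise any of these values was not tested, since the probe sequences were not used here.

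Beyond the 6 genes, 17 further genes of the family were measured, and 4 of them were kept. Klra3 and Klri2 rose after stimulation, by 0.42 (adjusted p = 0.00371) and 0.50 (adjusted p = 0.00421), and Klrb1b (-0.17) and Klrc2 (0.07) were not called. Klra3 and Klri2 were kept through T1 groups alone, so their rises are not independent of the filter. All their T0 means were under the limit, so these sizes are not exact. In the fit of all genes the adjusted p was 0.00411 for Klra3 and 0.00456 for Klri2. Klrb1b, an inhibitory receptor for the Clec2d product, and Klrc2, the activating NKG2C chain, are named here because of their strain values, which were seen first. Klrb1b averaged 4.83 in C57BL/6J at T1 against 6.20 at T0, and 3.84 to 4.26 in the other strains over both times. Its T0 excess in C57BL/6J over the other 4 was 2.16 (adjusted p = 1.88e-11; 1.87 without T0 replicate 3), and its response differed between strains (adjusted p = 0.000548). Klrc2 in C57BL/6J exceeded the other 4 by 0.60 at T1 (adjusted p = 0.00411) and by 0.89 at T0 (adjusted p = 2.8e-05). Klrb1b and Klrc2 had group means over the limit in C57BL/6J only, and were kept through that strain alone. Their tests of a C57BL/6J excess are thus not independent of the filter or of the choice to name them. The other strains lay under the limit, so these sizes are not exact. C57BL/6J had the highest mean of the 5 strains for 10 of the 23 family genes measured at T1 and for 13 of 23 at T0 (12 without T0 replicate 3). Over all genes measured it was highest for 20.5% at T1 and 18% at T0. Most of these family genes lie under the limit in all groups.

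**Figure D3:**
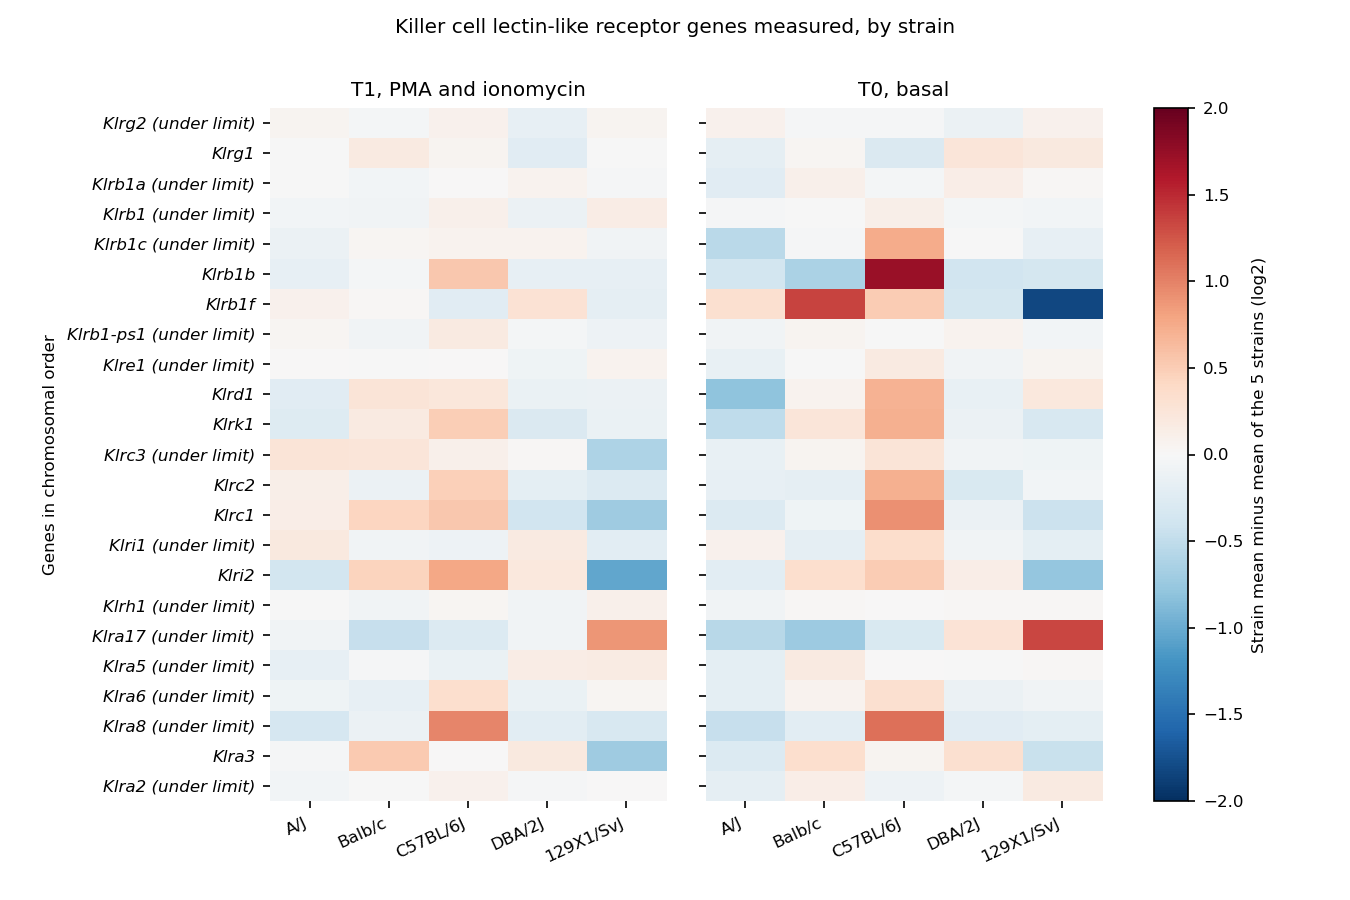
Mean of each strain minus the mean of the 5 strains on the log2 scale (colour) for the 23 killer cell lectin-like receptor genes measured, in chromosomal order down the page, at T1 (left) and T0 (right). Genes marked under limit had no group mean of 5.327 or more; at T0 the C57BL/6J column is the highest for 13 of the 23 genes.

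Of 9 ligand genes measured 5 were kept. After stimulation 4 fell and 1 rose, with a median of -0.99, where 46.3% of all genes kept were called lower and 36.0% higher, with a median of -0.07. Clec2i, whose product is the ligand of the Klrb1f receptor, averaged 6.76 to 7.51 at T1 and 8.57 to 8.95 at T0 over the strains (-1.51, adjusted p = 2.14e-19). H60b, a ligand gene of NKG2D, fell by 1.20 (adjusted p = 8.89e-11) and differed between strains at T0 (adjusted p = 1.25e-08). At T0 it averaged 5.05 in C57BL/6J and 5.20 in DBA/2J, against 6.97 to 7.12 in the other strains. The C57BL/6J and DBA/2J means were under the limit, so the size of this difference is not exact. Sequence variants between strains under its probes were not tested. Cdh4, a cadherin, rose by 0.25 (adjusted p = 0.000152). Its T0 means, 5.07 to 5.3, were all under the limit, and it was kept through T1 groups alone. Cdh1, 1 of the 4 genes that fell, was kept through A/J at T0 alone (5.35). The tests of Cdh4 and Cdh1 are thus not independent of the filter, and their sizes are not exact.

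Among 17 adaptor and signalling genes kept, 3 rose, 11 fell and 3 were not called, with a median of -0.40. The number called is near the 82.3% over all genes kept. Zap70, a kinase of the T cell receptor and of NK receptors, rose by 1.18 and Fyn, a Src family kinase, rose by 0.43. Inpp5d, the lipid phosphatase SHIP1 that inhibitory receptors recruit, fell by 2.00, and Syk, a kinase of activating receptors and B cells, fell by 1.54. The adjusted p-values of these 4 genes ran from 5.79e-19 to 1.65e-11.

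Genes of the NK cell list moved in both directions. Of its 14 genes kept, 7 rose, 5 fell and 2 were not called, with a median of 0.28, against the same 36.0% higher and 46.3% lower over all genes kept. Gzmb, the protease granzyme B, rose by 4.00 and Xcl1, a chemokine, rose by 3.32, whereas Ctsw, a cathepsin of cytotoxic cells, fell by 1.62 and Txk, a Tec family kinase, fell by 1.30. These genes are also used by T cells. Both CD8 genes, Cd8a and Cd8b1, fell, and so did 8 of 9 B cell genes, which move in the same direction as Klrb1f and Klrd1. The part of NK, CD8, B, myeloid or erythroid cells in the receptor values was not tested.

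**Figure D4:**
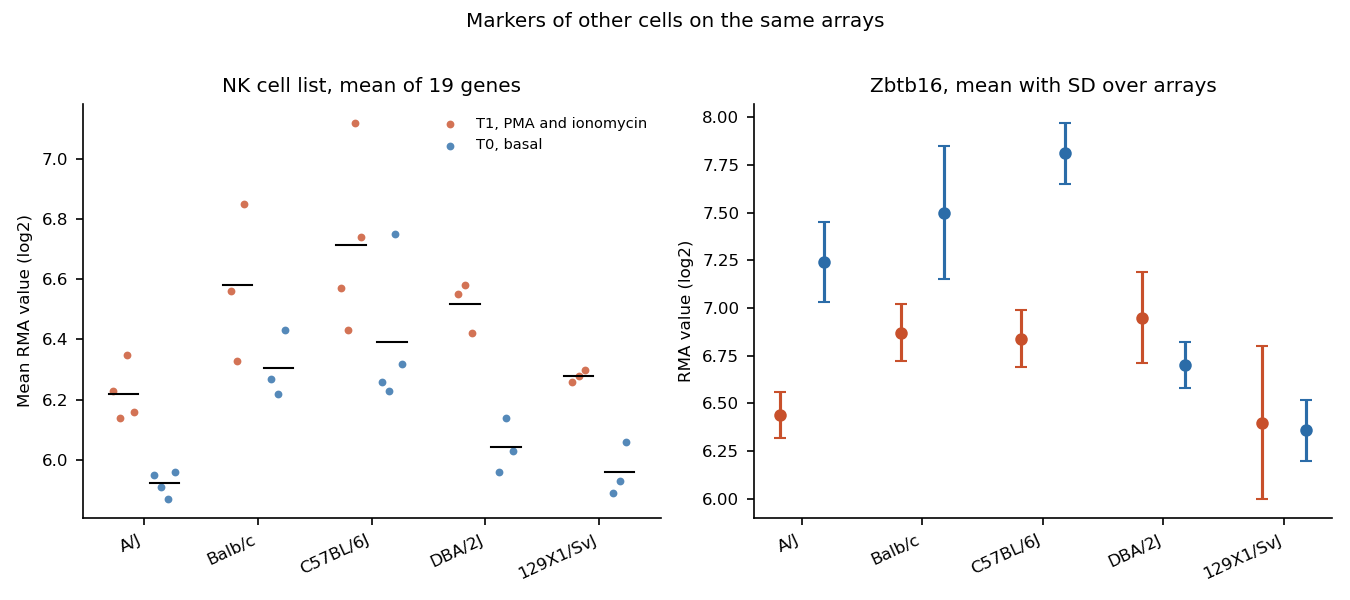
Mean log2 value of 19 NK cell genes on each array (left, bars are group means) and Zbtb16 group means with SD over arrays (right), by strain, with T1 in orange left of T0 in blue. The NK cell list is higher at T1 in group mean in all 5 strains, but its genes moved in both directions. Among those kept, Gzmb (4.00) and Xcl1 (3.32) rose most and Ctsw (-1.62) and Txk (-1.30) fell most. Zbtb16 at T0 is highest in C57BL/6J (7.81) and lowest in 129X1/SvJ (6.36).

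The genes whose values most resembled each receptor over the 34 arrays were found by Pearson's r among all genes kept. For Klrb1f they were Pole2 (0.962), Arap2 (0.951) and Arid4b (0.95), and for Klrd1 Apaf1 (0.913), Itgal (0.907) and Pdk3 (0.902). For Klrk1 they were Acadl (0.873), Gpr132 (0.752) and Klrb1b (0.724). For Klrg1 they were Pacsin1 (0.775), Jmjd8 (0.731) and Cdk10 (0.725), and for Klrc1 Trav7n-5 (0.755), Cysltr2 (0.723) and Klri2 (0.722). The arrays share strains and times, so these values rank genes by profile and carry no test.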

How the data were processed

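Per the labels, the authors used RMA, which corrects background, quantile-normalizes the arrays and summarises probes. Each deposited value is the log2 intensity of a probe set on 1 array. Its version and probe set definitions are not stated there. Of 35556 probe sets, 21789 carry 1 gene symbol. Each of 19938 genes was represented by its brightest such probe set. Genes with at least 1 group mean, of 10, at or over 5.327, the median of the whole table, were kept. Array medians ran from 5.28 to 5.39. The number of arrays limits the precision.

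All 34 arrays entered 1 limma fit (limma 3.58.1, R 4.3.3) with a mean per strain and time, with Benjamini-Hochberg adjustment over the genes kept (pairs of strains over genes and 10 pairs). The fit was tested on simulated data. The text names the 6 receptor genes, up to 2 called genes in each direction of each further list, and the 3 genes most like each receptor. Other genes are named where a result turned on them. The receptor genes and lists were chosen with earlier results of these data known. Promoter sequences and gene order are from RefSeq, GRCm38.p6. Alternatives were filtering, normalization, probe sets, variance trend, replicate numbers and single arrays left out. Comparisons of 1 strain with the other 4 were rerun under them after the data were seen.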

Additional observations from a re-analysis of the deposited data

Results flagged for a closer look

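In A/J at T1, 1 Klrb1f array read 5.17, while the other 3 read 4.59, 4.66 and 4.66, a gap that took 0.879 of the group's range. Among 24 groups of 4 arrays examined for an array apart, this was 1, and chance flags about 1 in 20 such groups. The Klrb1f response differed between the 5 strains (adjusted p = 8.73e-05). It was more negative in Balb/c than in the other 4 strains (-1.65, adjusted p = 0.0123) and less negative in 129X1/SvJ (2.06, adjusted p = 0.000382). All T1 means, and the T0 mean of 129X1/SvJ, lie under the limit of 5.327, so these sizes are not exact and cannot be told apart from differences in T0 level.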

How the results depend on the processing

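Of 1980 repeats of a test on 1 receptor gene under another setting, 1928 kept the side of the threshold, 20 lost the call and 32 gained it. Of the differences between times called in the main fit, 0 changed direction. Differences that were not called could change sign, as Klrk1 in A/J did (-0.15 to 0.2 over the settings). Tests over strains carry no direction. Without the filter, 1 receptor gene was called in 129X1/SvJ, Klrb1f losing its call (adjusted p = 0.0578). With numbers 1 and 2 alone, 1 gene was called between strains at T1. With numbers 3 to 5 alone, 3 were called after stimulation and 1 between strains at T1, from fewer arrays. With the split of numbers as a term, 3 were called in response. Leaving out 1 array at a time gave 1 to 2 genes called in response, 1 to 3 between strains at T1 and 1 to 3 in 129X1/SvJ. With the replicate block, 3 genes were called in response, Klrd1 (adjusted p = 0.017) and Klrc1 (0.0493) joining Klrb1f. Apart from the smaller number of arrays named above, the cause of these changes was not tested. Deviations of T1 and T0 arrays with the same number correlated with a median of 0.258 (14 of 17 over 0.1), and 12 of 17 T1 arrays matched their own number best, a hint from the data and not from the design. A test of other probe sets was not possible, as each receptor gene has 1. Signals under the limit of 5.327 restrict what can be said of Klrb1c, Klrk1 and the T1 levels of Klrb1f and Klrd1.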
